A study of Mus musculus with 15 samples.

Results

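The assembly factors of the respiratory complexes were read in RNA from N2a cells, a mouse neuroblastoma line. The set was defined by gene symbol, with earlier results of these data known: genes named Ndufaf, Sdhaf, Uqcc, Coa, Atpaf, Cox10 to Cox19 or Cox20, together with Sco1, Sco2, Surf1, Lrpprc, Foxred1, Nubpl, Acad9, Ecsit, Tmem126b, Timmdc1, Bcs1l, Ttc19 and Lyrm7. This gave 45 of the 22507 genes in the deposited table, and 44 of them had enough counts to be tested. All 15 libraries came from cells taken on day 3 after siRNA (50 nM) and a plasmid were transfected together, with 3 libraries in each of 5 groups. The V465F group received siRNA against Opa1 and a plasmid for OPA1 carrying the V465F substitution, and the V560F group the same siRNA and a plasmid for OPA1 carrying V560F. The wild-type OPA1 group received the siRNA and a plasmid for unchanged OPA1, the knockdown group the siRNA with the control plasmid, and the control group control siRNA with the control plasmid. The comparisons address what loss of Opa1 and its replacement by mutant forms linked to dominant optic atrophy do to these cells. The labels give neither the species nor the coding sequence of the plasmid insert, nor whether the 3 replicates of a group were grown separately, so the tests rest on a spread between libraries that may be technical only.

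Assembly factors are proteins that build the respiratory complexes of the inner mitochondrial membrane but are not part of the finished enzyme. They hold newly made subunits, insert heme, copper, flavin or iron-sulfur clusters, and join preassembled modules. OPA1, a GTPase related to dynamin, sits in the same membrane, where it fuses mitochondria and shapes their cristae, and recessive or dominant defects in several of these factors and in OPA1 cause disease of the nervous system or the eye.

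The libraries held 20070123 to 27809960 counts each. Mouse Opa1 stood at 33.9 ± 0.722 CPM in V465F, 32.0 ± 4.28 CPM in V560F, 31.4 ± 2.27 CPM in wild-type OPA1, 36.8 ± 2.52 CPM in knockdown and 95.9 ± 4.94 CPM in control libraries (SD, n = 3 each; CPM are TMM-scaled counts relative to depth). No group given an OPA1 plasmid averaged above knockdown, so these values do not show whether the plasmids were expressed. Of 16 markers of sympathetic neuroblasts, 14 averaged over 1 FPKM (counts relative to gene length and depth), while among markers of astrocytes, immune cells, fibroblasts, epithelium, endothelium and muscle only Pecam1 did. The level of a gene relative to the other libraries also changed with gene length to a different degree in each group. The slope of log2 level on log10 length averaged -0.25 in V465F, -0.48 in V560F, 0.10 in wild-type OPA1, 0.21 in knockdown and 0.42 in control libraries. V560F replicate 2, at -0.82, and wild-type OPA1 replicate 3, at -0.07, lay farthest from their groups. Most assembly factor genes are short, with a median of 1.96 kb. The value with this trend removed is also given for called genes whose value or call changed most. It is given as well for genes called only with the trend removed.

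Per length, the most abundant of the 45 genes were Cox14 (52.7 FPKM over all 15 libraries), Uqcc2 (48.9 FPKM), Cox17 (46.6 FPKM), Surf1 (31.8 FPKM) and Coa5 (25.0 FPKM). In all, 11 genes averaged over 10 FPKM and 30 between 1 and 10 FPKM. The remaining 4 were Coa7 at 0.970 FPKM, Cox16 at 0.343 FPKM, Lyrm7 at 0.178 FPKM and Sco2 at 0.00256 FPKM. Sco2, which like Sco1 passes copper to the cytochrome c oxidase subunit COX2, had 1 count in V465F replicate 1 and 0 in every other library, so it was not tested. In the annotation used for overlaps its exons share 535 bases with Tymp on the same strand and 829 bases with Ncaph2 on the opposite strand. Together the 45 genes took 0.0720 to 0.0753% of all counts in V465F, 0.0679 to 0.0738% in V560F, 0.0749 to 0.0765% in wild-type OPA1, 0.0741 to 0.0764% in knockdown and 0.0808 to 0.0859% in control libraries. These are shares of unscaled totals, unlike CPM. The 50 genes with the most counts took 22.5 to 23.9% in V560F and 17.5 to 18.3% in control. After TMM scaling the order was another. The median log2 deviation of the tested genes from their means over 15 libraries averaged 0.068 in V465F, 0.105 in V560F, -0.031 in wild-type OPA1, -0.056 in knockdown and -0.044 in control (SD 0.049, 0.151, 0.048, 0.029 and 0.043).

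**Figure D1:**
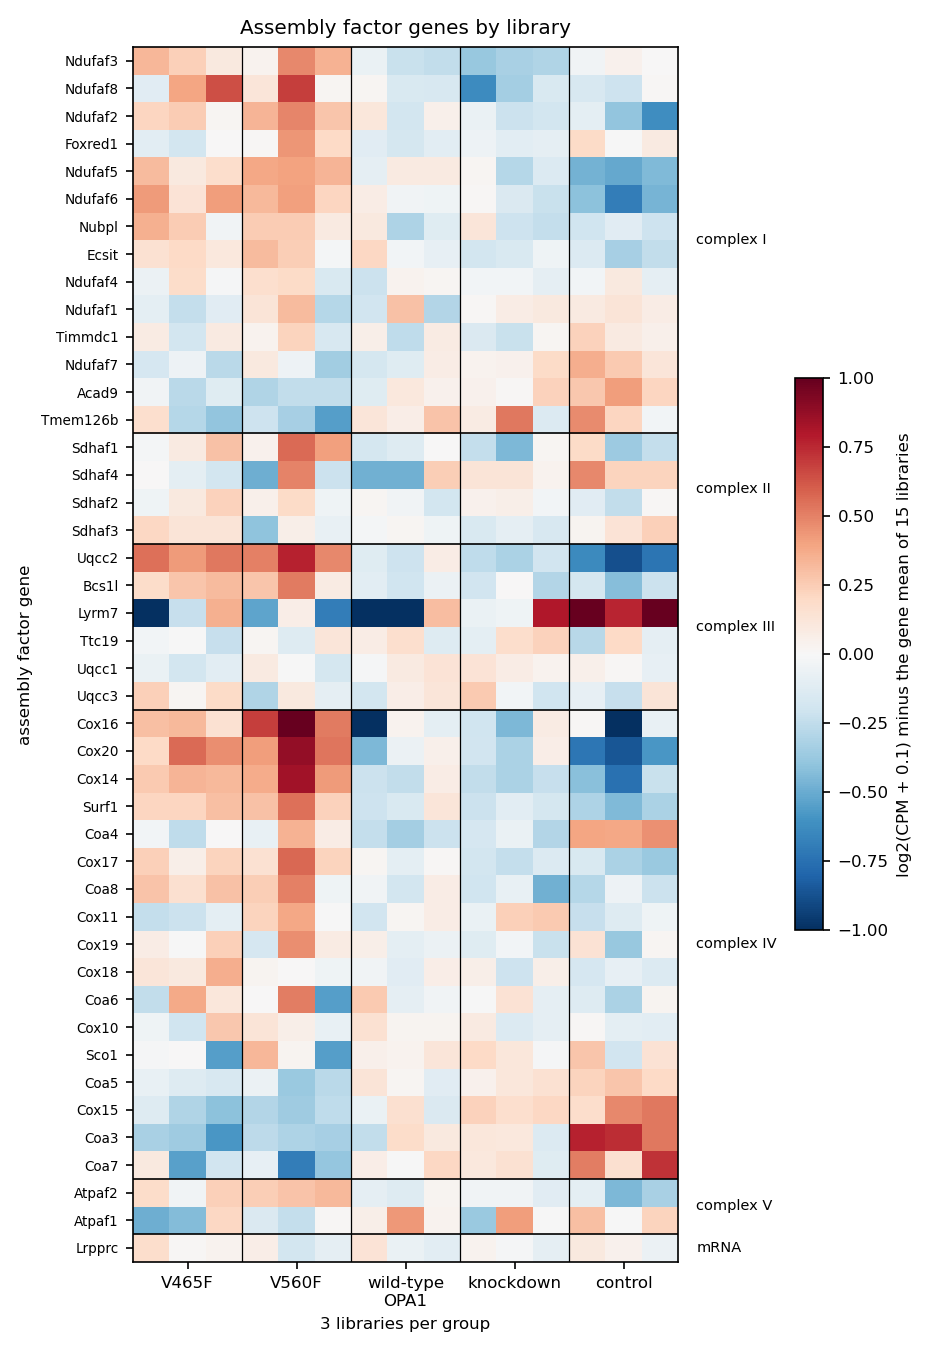
Level of each of the 44 tested assembly factor genes in each of the 15 libraries, as log2(CPM + 0.1) minus that gene's mean over all libraries, ordered by complex and by group, with the mRNA stability factor Lrpprc in the last row. Colours stop at 1 and -1, beyond which some libraries of Cox16 and Lyrm7 lie; Uqcc2 and Cox20 are red in both mutant groups and blue in control, and Coa3 and Coa4 are red in control.

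Of the 44 genes, 20 were called in at least 1 of the 5 comparisons and 24 in none, at an adjusted p under 0.05 in edgeR's quasi-likelihood test over all tested genes. The same count was not made for all tested genes, of which V560F against wild-type OPA1 alone called 24.5% higher and 24.9% lower. The 20 genes are therefore not read as a result about the set. The lowest adjusted p-values belonged to factors of complexes III and IV. Uqcc2, which with Uqcc1 receives newly made cytochrome b of complex III, and Cox20, a chaperone of the newly made complex IV subunit COX2, were called higher in knockdown against control and in V465F and V560F against wild-type OPA1. Coa3, which binds newly made COX1, and Coa4, another factor of complex IV, were called lower in knockdown against control. The windows of 250 bases before the start of these 4 genes are shown because they are the genes whose calls in knockdown held in every alternative processing tried. They come from RefSeq on GRCm38.p6, read 5′ to 3′ on the strand of the gene, and capitals mark motif matches on either strand.
Uqcc2, chr17:27133892-27134141, minus strand: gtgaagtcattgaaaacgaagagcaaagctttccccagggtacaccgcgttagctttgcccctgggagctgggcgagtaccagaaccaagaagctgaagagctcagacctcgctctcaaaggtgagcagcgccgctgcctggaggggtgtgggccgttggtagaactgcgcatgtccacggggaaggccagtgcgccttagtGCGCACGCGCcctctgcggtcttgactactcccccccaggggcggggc
Cox20, chr1:178318903-178319152, plus strand: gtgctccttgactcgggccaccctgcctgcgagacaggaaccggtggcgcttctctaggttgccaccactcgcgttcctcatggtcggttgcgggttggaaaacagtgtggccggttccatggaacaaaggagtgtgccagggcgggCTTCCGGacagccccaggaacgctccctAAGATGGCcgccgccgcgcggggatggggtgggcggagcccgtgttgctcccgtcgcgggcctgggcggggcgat
Coa3, chr11:101278949-101279198, minus strand: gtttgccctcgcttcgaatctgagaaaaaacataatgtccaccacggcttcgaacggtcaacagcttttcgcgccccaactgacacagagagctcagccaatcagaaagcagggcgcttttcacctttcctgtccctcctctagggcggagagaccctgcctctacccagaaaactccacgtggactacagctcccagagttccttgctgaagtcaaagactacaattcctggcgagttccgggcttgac
Coa4, chr7:100536850-100537099, plus strand: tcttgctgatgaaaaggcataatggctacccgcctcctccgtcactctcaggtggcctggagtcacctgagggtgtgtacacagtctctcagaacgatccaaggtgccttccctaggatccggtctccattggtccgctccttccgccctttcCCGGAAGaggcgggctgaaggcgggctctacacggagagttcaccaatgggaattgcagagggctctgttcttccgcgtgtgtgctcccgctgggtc

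Motifs known for factors that act at promoters of nuclear genes for mitochondrial proteins were searched on both strands: GCGCA, any base, then GCGC (NRF1), CCGGAAG (ETS family) and AAGATGGC (YY1). The Uqcc2 window, with 62.4% G and C, held the NRF1 letters 48 to 39 bases before the start. The Cox20 window (68%) held the ETS letters 103 to 97 bases and the YY1 letters 75 to 68 bases before the start, and the Coa4 window (59.2%) the ETS letters 97 to 91 bases before it. The Coa3 window (53.6%) held none of the 3. Among the 40 of 45 genes with a RefSeq window, 27.5% held the ETS letters, 5% the NRF1 letters and 2.5% the YY1 letters. The shares in the windows of all 27025 RefSeq genes, non-coding ones included, were 7.05%, 3.86% and 1.59% in the same order, and the median G and C content of all windows was 52%. A match is a description of the letters. The motifs and the 4 genes were chosen after the expression values were seen.

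In knockdown against control, which asks what siRNA against Opa1 did, 4 of 44 assembly factor genes were higher (9.09%, against 19.9% of all tested genes) and 3 were lower (6.82%, against 16% of all tested genes). Cox20 was higher by 50.0%, Uqcc2 by 41.1%, Ndufaf6 by 33.0% and Ndufaf5 by 27.5%, while Coa3 fell by 36.5%, Coa4 fell by 33.5% and Ndufaf3 fell by 21.3%. The other 37 were not called, and the 44 log2 fold changes ran from -0.96 to 0.58 with a median of -0.01, against 0.01 for all tested genes. The nuclear-encoded subunits of the same complexes, 86 of which were tested, gave 49 higher and 1 lower, with a median log2 fold change of 0.27. In bulk RNA a change in the cells that make up a culture and a change of RNA per cell cannot be told apart. The calls of Ndufaf3, Ndufaf5 and Ndufaf6 each depended on single libraries. Ndufaf3 missed the threshold without any 1 of the 6 libraries (edgeR adjusted p = 0.0504 to 0.0932), Ndufaf5 without knockdown replicate 1 (0.0663), and Ndufaf6 without control replicate 2 (0.0683) or knockdown replicate 1 (0.0519).

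On the deposited FPKM scale, with limma on log2(FPKM + 1), 2 of the 44 genes were higher in knockdown and 11 lower, against 7.94% and 27.4% of all tested genes. That scale moved the median log2 fold change of all tested genes to -0.09 and that of the assembly factors to -0.13. Under TMM scaling with each library's length trend removed, 7 were higher and 4 lower, against 29.8% and 13.2% of all tested genes. The calls of Ndufaf5 and Ndufaf6 were lost on the FPKM scale.

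In wild-type OPA1 against knockdown, which asks what the wild-type plasmid changed on top of the siRNA, edgeR called 0 of 44 assembly factor genes higher or lower, as it did for 0% of all tested genes in either direction. At an unadjusted p under 0.05 there were 0 of 44, against 1157 of 13074 among all tested genes, and DESeq2 also called 0 of the 44. The smallest adjusted p among them in edgeR was 0.573, for Cox15. The 95% interval of a log2 fold change reached 0.253 to either side of it in the median gene.

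In V560F against wild-type OPA1, 15 of 44 assembly factor genes were higher (34.1%, against 24.5% of all tested genes) and 4 were lower (9.09%, against 24.9%). The higher ones spanned complex I (5 of 14 tested), complex II (1 of 4), complex III (2 of 6), complex IV (6 of 17) and complex V (1 of 2). Cox20 was higher by 70.0%, Cox14 by 60.7%, Uqcc2 by 59.0%, Surf1 by 35.4% and Bcs1l by 34.5%. The 4 lower ones were Tmem126b, which fell by 30.5%, Cox15, which fell by 18.3%, Acad9, which fell by 17.6%, and Coa5, which fell by 15.3%. The median log2 fold change of the 44 genes was 0.14 under TMM scaling, against -0.02 for all tested genes, and -0.10 on the FPKM scale, against -0.16 for all tested genes. On the FPKM scale 5 were higher and 12 lower (9.59% and 44.4% of all tested genes), and the calls of Atpaf2, Bcs1l, Coa4, Cox17, Foxred1, Ndufaf2, Ndufaf3, Ndufaf5, Ndufaf6 and Sdhaf1 were lost.

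The calls that ended without 1 library in this comparison were 10 of 19. Without V560F replicate 2 they were Coa4 (edgeR adjusted p = 0.0846), Coa5 (0.051), Cox15 (0.0842), Cox16 (0.063), Foxred1 (0.184), Ndufaf6 (0.0924) and Sdhaf1 (0.125). Without wild-type OPA1 replicate 2 they were Acad9 (0.119), Cox15 (0.203), Foxred1 (0.0682), Ndufaf2 (0.0828), Ndufaf6 (0.0714) and Sdhaf1 (0.0706). Without wild-type OPA1 replicate 3 they were Acad9 (0.0703), Ndufaf6 (0.0591) and Tmem126b (0.0903), and without wild-type OPA1 replicate 1 Coa5 (0.0786), Cox16 (0.0798) and Sdhaf1 (0.0797). Acad9 (0.0708) and Cox15 (0.0625) were lost without V560F replicate 1, and Sdhaf1 (0.0658) and Tmem126b (0.106) without V560F replicate 3. The number of higher genes was 10 without V560F replicate 2, against 21.1% of all tested genes.

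In V465F against wild-type OPA1, 7 of 44 assembly factor genes were higher (15.9%, against 18.1% of all tested genes) and 1 was lower (2.27%, against 20% of all tested genes). Uqcc2 was higher by 49.6%, Cox20 by 47.2%, Cox14 by 34.4%, Ndufaf3 by 32.4%, Bcs1l by 30.4%, Ndufaf6 by 26.4% and Surf1 by 24.5%, and Coa3 fell by 27.0%. The share of higher genes lay near that of all tested genes. The median log2 fold change was 0.14 under TMM scaling, against -0.02 for all tested genes, and -0.02 on the FPKM scale, against -0.11, where 2 were higher and 8 lower (7.43% and 32.9% of all tested genes) and the calls of Bcs1l, Cox14, Ndufaf3, Ndufaf6 and Surf1 were lost. Coa3 missed the threshold without wild-type OPA1 replicate 2 (edgeR adjusted p = 0.113), wild-type OPA1 replicate 3 (0.0619) or V465F replicate 3 (0.107), and Surf1 without wild-type OPA1 replicate 1 (0.0504). Ndufaf3 missed it without V465F replicate 1 (0.0546), and Ndufaf6 without V465F replicate 1 (0.0916) or 3 (0.0974) or wild-type OPA1 replicate 2 (0.0745) or 3 (0.0585). Both mutant comparisons share the 3 wild-type OPA1 libraries, which are also set against knockdown, so their calls are given side by side and are not independent of each other.

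In V465F against V560F, which asks whether the 2 substitutions differ, edgeR called 0 of 44 assembly factor genes in either direction, against 0% of all tested genes called higher and 0.00765% called lower. DESeq2 also called 0 of the 44. At an unadjusted p under 0.05 there were 4: Cox11 (log2 fold change -0.40, 95% interval -0.67 to -0.12), Foxred1 (-0.33, -0.60 to -0.05), Cox14 (-0.26, -0.50 to -0.01) and Sdhaf3 (0.28, 0.02 to 0.55). The smallest edgeR adjusted p was 0.156, for Cox11, and the largest difference was that of Cox16, at -0.53. The 95% interval reached 0.262 to either side in the median gene. A gene called in 1 mutant and not in the other was therefore not shown to differ between them.

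**Figure D2:**
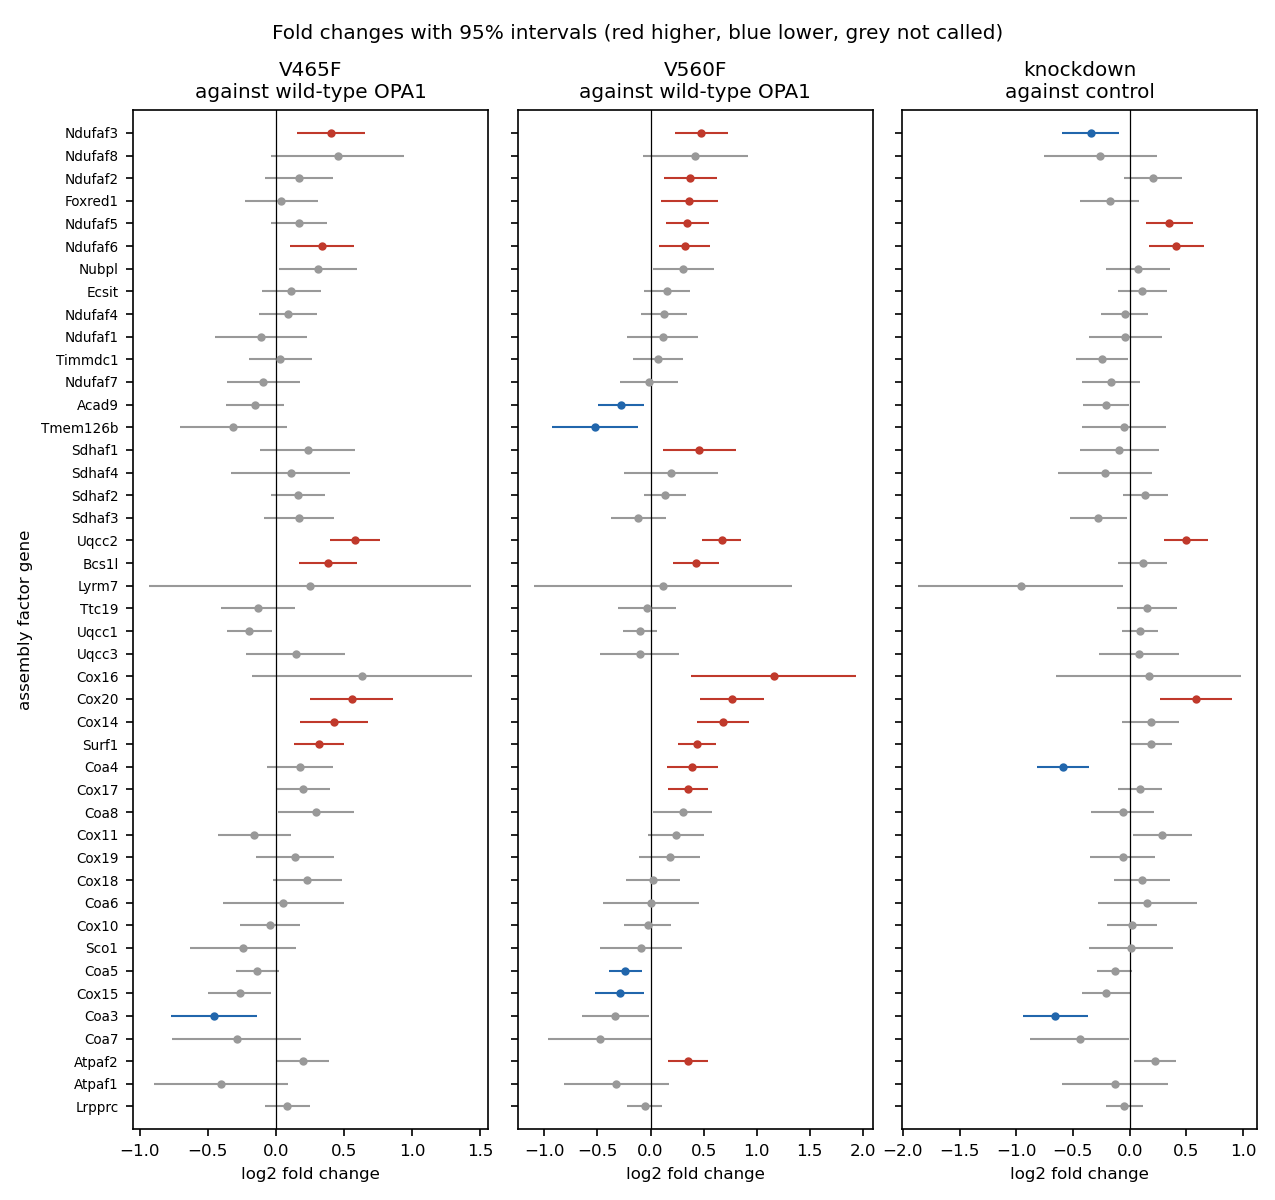
Log2 fold change of each tested assembly factor gene with its 95% interval in V465F against wild-type OPA1, V560F against wild-type OPA1 and knockdown against control (n = 3 libraries per group, edgeR with TMM scaling), in red where higher, blue where lower and grey where not called. The panels hold 7, 15 and 4 higher genes and 1, 4 and 3 lower genes; the horizontal scales differ, and the widest intervals are those of Lyrm7 and Cox16, the genes with the fewest counts.

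Complex IV, cytochrome c oxidase, had the most factors in the set, and several act on its mitochondrially encoded subunits COX1 and COX2. Cox20, the COX2 chaperone, stood at 13.2, 17.03 and 15.8 CPM in V465F, 15.3, 21.1 and 16.6 CPM in V560F, 8.36, 11.0 and 11.8 CPM in wild-type OPA1, 9.99, 9.19 and 12.0 CPM in knockdown and 6.89, 6.27 and 7.63 CPM in control libraries. Every V465F and V560F library was above every wild-type OPA1 library, and every knockdown library above every control library. Its log2 fold changes were 0.56 ± 0.147 (edgeR adjusted p = 0.00477) in V465F and 0.77 ± 0.146 (edgeR adjusted p = 0.000177) in V560F against wild-type OPA1, and 0.58 ± 0.153 (edgeR adjusted p = 0.00545) in knockdown against control. Removing the length trend gave 0.39, 0.47 and 0.50 (edgeR adjusted p = 0.017, 0.00345 and 0.0032). Its exons share 591 bases with Hnrnpu on the opposite strand, and since the strand setting of the counting is not given in the sources used here, reads of the 2 genes cannot be told apart there. Cox16, which also acts with COX2, had few counts, at 1.11, 1.13 and 0.994 CPM in V465F, 1.49, 1.87 and 1.305 CPM in V560F, 0.324, 0.908 and 0.820 CPM in wild-type OPA1, 0.757, 0.618 and 0.941 CPM in knockdown and 0.890, 0.361 and 0.831 CPM in control libraries. The V560F libraries lay above all others, and V560F against wild-type OPA1 gave a log2 fold change of 1.16 ± 0.376 (edgeR adjusted p = 0.0139). It shares 1648 bases of exon with Gm20498 on the same strand. With limma on log2(FPKM + 1) the V560F log2 fold change was 0.25, and the call held. Cox16 averaged 0.494 FPKM in V560F and 0.262 FPKM in wild-type OPA1, so the added 1 makes that value smaller.

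Cox14 and Coa3 both bind newly made COX1 and act early, and they were called in opposite directions in V465F. Cox14 stood at 44.9, 47.3 and 46.8 CPM in V465F, 48.6, 67.2 and 50.4 CPM in V560F, 32.3, 31.6 and 39.5 CPM in wild-type OPA1, 31.5, 30.1 and 31.8 CPM in knockdown and 28.0, 22.3 and 32.1 CPM in control libraries. All libraries of both mutants were above those of wild-type OPA1, with log2 fold changes of 0.43 ± 0.119 (edgeR adjusted p = 0.00697) in V465F and 0.68 ± 0.118 (edgeR adjusted p = 6e-05) in V560F. With the length trend removed, the V560F value was 0.26 (edgeR adjusted p = 0.0115) and the V465F value 0.17 (0.1). Coa3 stood at 4.85, 4.73 and 4.03 CPM in V465F, 5.06, 4.90 and 4.82 CPM in V560F, 5.11, 6.93 and 6.52 CPM in wild-type OPA1, 6.58, 6.57 and 5.53 CPM in knockdown and 10.4, 10.2 and 8.80 CPM in control libraries. Control libraries were the highest, and all mutant libraries lay below the wild-type OPA1 libraries. Its log2 fold changes were -0.65 ± 0.138 (edgeR adjusted p = 0.00109) in knockdown against control, -0.45 ± 0.151 (edgeR adjusted p = 0.0215) in V465F and -0.33 ± 0.151 (edgeR adjusted p = 0.0732) in V560F against wild-type OPA1. Without the length trend the V465F value was -0.71 (edgeR adjusted p = 0.000852) and the V560F value -0.76 (0.000335), although the V560F value had not been called under TMM scaling alone. Its exons share 63 bases with Cntd1 on the opposite strand.

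Surf1, which acts in the insertion of heme a into COX1 and whose loss in humans causes Leigh syndrome, stood at 49.9, 50.0 and 53.1 CPM in V465F, 52.8, 63.1 and 50.5 CPM in V560F, 37.4, 38.8 and 46.7 CPM in wild-type OPA1, 37.1, 39.98 and 38.0 CPM in knockdown and 34.6, 31.6 and 34.5 CPM in control libraries. Mutant libraries lay above wild-type OPA1 libraries without overlap, with log2 fold changes of 0.32 ± 0.0881 (edgeR adjusted p = 0.00701) for V465F and 0.44 ± 0.0882 (edgeR adjusted p = 0.000305) for V560F. With the length trend removed the V465F value was 0.19 (edgeR adjusted p = 0.0247) and the V560F value 0.20 (0.0127). Surf1 shares 137 bases of exon with its neighbour Surf2 on the opposite strand. Cox10 makes heme O, the precursor of heme A, and stood at 18.6, 16.7 and 23.1 CPM in V465F, 21.0, 20.0 and 18.2 CPM in V560F, 21.3, 19.5 and 19.5 CPM in wild-type OPA1, 20.4, 17.4 and 18.01 CPM in knockdown and 19.4, 17.9 and 17.8 CPM in control libraries. Its groups overlapped in all 5 comparisons. Cox15, the heme A synthase, stood at 14.8, 13.1 and 12.1 CPM in V465F, 13.1, 12.6 and 13.6 CPM in V560F, 15.5, 18.03 and 14.6 CPM in wild-type OPA1, 19.0, 18.2 and 18.6 CPM in knockdown and 18.3, 22.6 and 23.3 CPM in control libraries, with V560F below wild-type OPA1 in every library. V560F against wild-type OPA1 gave a log2 fold change of -0.29 ± 0.112 (edgeR adjusted p = 0.0351), which was -0.09 (edgeR adjusted p = 0.532) with the length trend removed, and V465F gave a log2 fold change of -0.27 ± 0.111 (edgeR adjusted p = 0.0642). Of the factors that make or insert heme, Surf1 was thus called higher, Cox15 lower and Cox10 not called in V560F.

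The copper chain of complex IV runs from Cox17, a chaperone of the intermembrane space, to Sco1, Sco2 and Coa6 for COX2 and to Cox11 for COX1. Cox17 stood at 45.7, 40.2 and 45.2 CPM in V465F, 43.0, 57.5 and 45.1 CPM in V560F, 39.1, 36.1 and 38.9 CPM in wild-type OPA1, 34.0, 32.7 and 35.0 CPM in knockdown and 34.8, 31.0 and 29.8 CPM in control libraries. Every V560F library was above every wild-type OPA1 library, with a log2 fold change of 0.35 ± 0.0928 (edgeR adjusted p = 0.00322), but the value turned to -0.04 (edgeR adjusted p = 0.682) with the length trend removed. Cox17 is 0.831 kb long, and it shares 168 bases of exon with Gm21987 on the same strand. Sco1 stood at 6.62, 6.72 and 4.52 CPM in V465F, 8.42, 6.82 and 4.54 CPM in V560F, 6.94, 6.86 and 7.27 CPM in wild-type OPA1, 7.68, 7.22 and 6.63 CPM in knockdown and 8.13, 5.85 and 7.41 CPM in control libraries, and no comparison called it. Neither Cox11 nor Coa6 was called under TMM scaling alone, nor was Cox19, another copper-linked factor. Only with the length trend removed was Cox11 called higher in knockdown, at 0.31 (edgeR adjusted p = 0.0423). In V560F against wild-type OPA1 the log2 fold changes were 0.24 for Cox11, 0.01 for Coa6 and 0.18 for Cox19. With length and G and C content removed, those of Coa6 and Cox19 turned to -0.47 and -0.27, and both genes were called lower.

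Coa4 was the complex IV factor with opposite calls in the comparisons that share no library. It stood at 12.0, 10.2 and 12.2 CPM in V465F, 11.6, 15.5 and 12.8 CPM in V560F, 10.3, 9.62 and 10.5 CPM in wild-type OPA1, 10.9, 11.7 and 9.95 CPM in knockdown and 16.1, 16.0 and 16.7 CPM in control libraries. Control libraries lay above all others, and knockdown against control gave a log2 fold change of -0.59 ± 0.112 (edgeR adjusted p = 0.000467). V560F libraries lay above wild-type OPA1 libraries, with a log2 fold change of 0.39 ± 0.116 (edgeR adjusted p = 0.00763), and with the length trend removed this value was 0.18 (edgeR adjusted p = 0.184). V465F gave a log2 fold change of 0.18 ± 0.117 (edgeR adjusted p = 0.239). Among the remaining factors of complex IV, Coa5 was lower in V560F, with a log2 fold change of -0.24 ± 0.0753 (edgeR adjusted p = 0.0112), although its highest V560F library overlapped the wild-type OPA1 group, and its value with the length trend removed was -0.10 (edgeR adjusted p = 0.252). Coa7, Coa8 and Cox18, which inserts COX2 into the membrane, were not called. Their log2 fold changes in V560F against wild-type OPA1 were -0.48, 0.30 and 0.03 in that order.

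**Figure D3:**
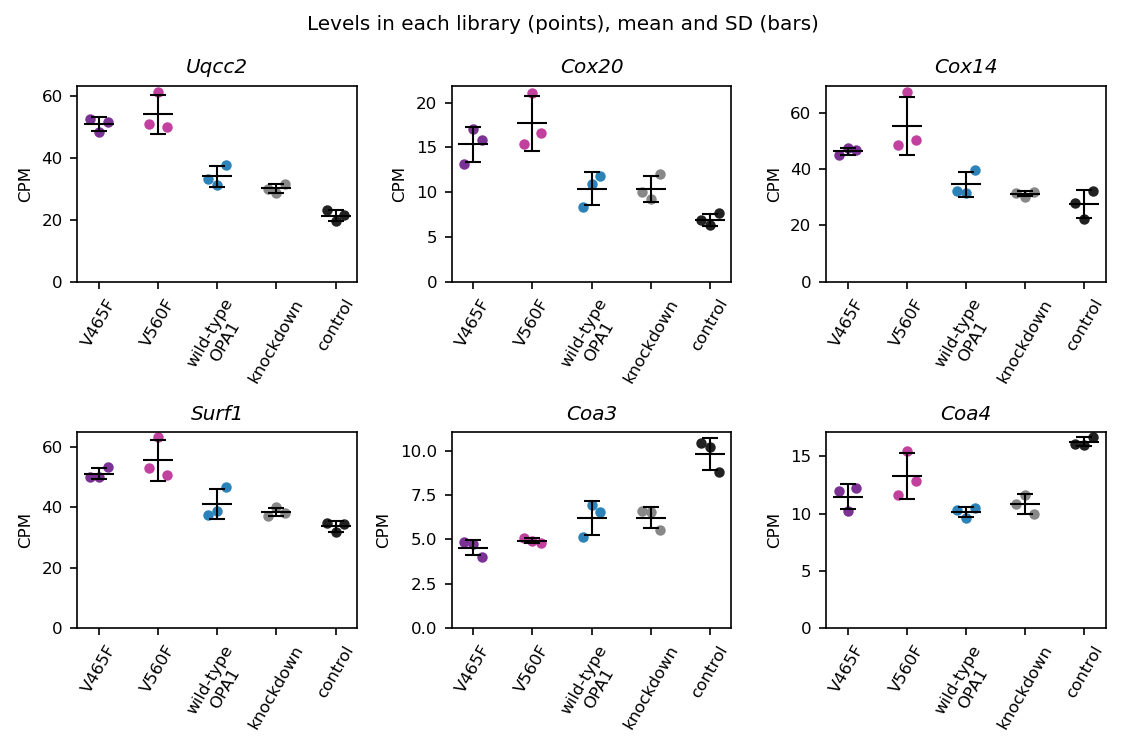
CPM after TMM scaling of Uqcc2, Cox20, Cox14, Surf1, Coa3 and Coa4 in each library (points), with the mean and SD of each group of 3 (bars), V465F, V560F, wild-type OPA1, knockdown and control from left to right. Uqcc2, Cox20, Cox14 and Surf1 were higher in V465F and V560F than in wild-type OPA1, whereas Coa3 and Coa4 were highest in control.

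Complex III, cytochrome bc1, has Uqcc1, Uqcc2 and Uqcc3 for cytochrome b, and Lyrm7, Bcs1l and Ttc19 for the Rieske iron-sulfur protein. Uqcc2 stood at 52.7, 48.4 and 51.9 CPM in V465F, 51.0, 61.3 and 50.2 CPM in V560F, 33.1, 31.2 and 37.9 CPM in wild-type OPA1, 30.2, 28.9 and 31.5 CPM in knockdown and 23.1, 19.5 and 21.7 CPM in control libraries. The mutant libraries were the highest, the control libraries the lowest, and neither set overlapped the wild-type OPA1 or knockdown libraries. Its log2 fold changes were 0.58 ± 0.089 (edgeR adjusted p = 4.56e-05) in V465F and 0.67 ± 0.0892 (edgeR adjusted p = 3.71e-06) in V560F against wild-type OPA1, and 0.50 ± 0.0922 (edgeR adjusted p = 0.000383) in knockdown against control. With the length trend removed these were 0.33, 0.26 and 0.37, each still under the threshold for adjusted p (edgeR adjusted p = 0.000188, 0.00183 and 9.57e-05). Its partner Uqcc1 and the later factor Uqcc3 were not called under TMM scaling alone. In V560F both had a log2 fold change of -0.10. With the length trend removed Uqcc3 was called lower in V560F, at -0.49 (edgeR adjusted p = 0.0247). Uqcc1 was then called higher in knockdown, at 0.22 (edgeR adjusted p = 0.0439).

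Bcs1l, the ATPase that places the Rieske protein into complex III, stood at 28.0, 30.0 and 30.8 CPM in V465F, 29.9, 35.4 and 26.1 CPM in V560F, 22.9, 21.5 and 23.7 CPM in wild-type OPA1, 21.6, 24.7 and 20.1 CPM in knockdown and 21.8, 18.4 and 21.2 CPM in control libraries. Mutant libraries lay above wild-type OPA1 libraries without overlap, with log2 fold changes of 0.38 ± 0.104 (edgeR adjusted p = 0.00584) for V465F and 0.43 ± 0.104 (edgeR adjusted p = 0.0017) for V560F. Removing the length trend gave 0.33 (edgeR adjusted p = 0.00405) and 0.30 (0.00606). Ttc19, which clears fragments of the Rieske protein, stood at 12.5, 12.6 and 10.8 CPM in V465F, 12.9, 11.6 and 13.8 CPM in V560F, 13.3, 14.3 and 11.6 CPM in wild-type OPA1, 11.8, 14.4 and 14.9 CPM in knockdown and 10.4, 14.6 and 11.9 CPM in control libraries, and its groups overlapped in all 5 comparisons. Lyrm7, which holds the Rieske protein in the matrix, was at or below 1.55 CPM throughout, with 0.152, 0.430 and 0.696 CPM in V465F, 0.330, 0.550 and 0.284 CPM in V560F, 0.203, 0.202 and 0.671 CPM in wild-type OPA1, 0.492, 0.502 and 0.982 CPM in knockdown and 1.35, 0.953 and 1.55 CPM in control libraries. Its knockdown libraries overlapped control, and the log2 fold change of -0.96 ± 0.436 (edgeR adjusted p = 0.0897) was not called.

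Complex I factors were read by stage. The early membrane module is built with Ndufaf1, Ecsit, Acad9, Tmem126b and Timmdc1. Tmem126b stood at 6.51, 4.73 and 4.38 CPM in V465F, 5.01, 4.57 and 3.91 CPM in V560F, 6.29, 6.06 and 7.08 CPM in wild-type OPA1, 6.13, 8.38 and 5.24 CPM in knockdown and 8.05, 6.73 and 5.67 CPM in control libraries. V560F libraries lay below wild-type OPA1 libraries, with a log2 fold change of -0.52 ± 0.194 (edgeR adjusted p = 0.0291), and the value was -0.89 with the length trend removed (edgeR adjusted p = 0.000282). In V465F Tmem126b was called lower only with that trend removed, at -0.54 (edgeR adjusted p = 0.0208). Acad9, which also has acyl-CoA dehydrogenase activity, stood at 15.2, 12.9 and 14.3 CPM in V465F, 12.6, 13.1 and 13.1 CPM in V560F, 14.3, 16.8 and 16.0 CPM in wild-type OPA1, 16.0, 15.6 and 18.2 CPM in knockdown and 18.8, 20.8 and 18.1 CPM in control libraries. V560F lay below wild-type OPA1, with a log2 fold change of -0.28 ± 0.103 (edgeR adjusted p = 0.0282), and the value was -0.13 with the length trend removed (edgeR adjusted p = 0.31). Ecsit stood at 18.7, 19.3 and 18.1 CPM in V465F, 21.0, 20.1 and 16.6 CPM in V560F, 19.5, 16.6 and 15.9 CPM in wild-type OPA1, 14.9, 15.1 and 16.4 CPM in knockdown and 15.4, 13.4 and 14.2 CPM in control libraries. Timmdc1 stood at 22.9, 19.0 and 23.0 CPM in V465F, 22.1, 25.2 and 19.3 CPM in V560F, 22.5, 18.1 and 22.8 CPM in wild-type OPA1, 19.5, 18.5 and 21.9 CPM in knockdown and 25.4, 23.0 and 22.4 CPM in control libraries. Neither was called, nor was Ndufaf1, with a log2 fold change of 0.11 in V560F. Of the 5 genes of this module 2 were called lower in V560F and none higher, against 24.9% and 24.5% of all tested genes. The call of Acad9 was lost with the length trend removed, and both calls ended without single libraries. A count in so few genes is not a result about the module.

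Ndufaf3 and Ndufaf4 bind the module of complex I that reduces ubiquinone. Ndufaf3 stood at 12.3, 11.6 and 10.4 CPM in V465F, 10.0, 13.6 and 12.5 CPM in V560F, 9.33, 8.38 and 8.24 CPM in wild-type OPA1, 7.49, 7.76 and 7.90 CPM in knockdown and 9.52, 10.1 and 9.79 CPM in control libraries. The knockdown libraries lay below all others and the mutant libraries above wild-type OPA1. Its log2 fold changes were -0.34 ± 0.121 (edgeR adjusted p = 0.0302) in knockdown against control, 0.40 ± 0.121 (edgeR adjusted p = 0.0113) in V465F and 0.48 ± 0.121 (edgeR adjusted p = 0.00237) in V560F against wild-type OPA1. With the length trend removed the V465F value was 0.28 (edgeR adjusted p = 0.0649) and the V560F value 0.26 (0.0833). Ndufaf4 was not called, with a log2 fold change of 0.13 in V560F. With the length trend removed Ndufaf4 was called higher there, at 0.25 (edgeR adjusted p = 0.0427).

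Ndufaf5 modifies a subunit of the same module, with Ndufaf8 as its partner, and stood at 19.2, 16.5 and 17.4 CPM in V465F, 20.2, 20.4 and 19.6 CPM in V560F, 14.5, 16.5 and 16.4 CPM in wild-type OPA1, 15.7, 12.7 and 14 CPM in knockdown and 11.1, 10.8 and 11.3 CPM in control libraries. Control libraries were the lowest and V560F libraries the highest. Its log2 fold changes were 0.35 ± 0.1 (edgeR adjusted p = 0.00969) in knockdown against control, 0.17 ± 0.0982 (edgeR adjusted p = 0.183) in V465F and 0.35 ± 0.0979 (edgeR adjusted p = 0.00546) in V560F against wild-type OPA1. Ndufaf6, which acts early in complex I assembly, stood at 15.4, 12.5 and 15.2 CPM in V465F, 14.2, 15.2 and 13.2 CPM in V560F, 12.0, 11.1 and 11.0 CPM in wild-type OPA1, 11.46, 10.3 and 9.74 CPM in knockdown and 8.55, 6.997 and 8.20 CPM in control libraries. Its log2 fold changes were 0.41 ± 0.118 (edgeR adjusted p = 0.00976) in knockdown against control, 0.34 ± 0.114 (edgeR adjusted p = 0.0234) in V465F and 0.32 ± 0.115 (edgeR adjusted p = 0.0243) in V560F. Removing the length trend moved these to 0.52, 0.49 and 0.50 for this gene of 4.31 kb.

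Nubpl, which delivers iron-sulfur clusters to complex I, stood at 11.46, 10.7 and 8.75 CPM in V465F, 10.7, 10.7 and 9.53 CPM in V560F, 9.57, 7.20 and 8.24 CPM in wild-type OPA1, 9.72, 7.73 and 7.57 CPM in knockdown and 7.78, 8.28 and 7.75 CPM in control libraries. Its mutant and wild-type OPA1 libraries overlapped and it was not called. Foxred1, a flavoprotein of later steps, stood at 7.07, 6.72 and 7.66 CPM in V465F, 7.70, 10.4 and 8.79 CPM in V560F, 7.06, 6.73 and 7.08 CPM in wild-type OPA1, 7.38, 7.07 and 7.16 CPM in knockdown and 8.71, 7.59 and 8.12 CPM in control libraries. V560F libraries lay above wild-type OPA1 libraries, with a log2 fold change of 0.37 ± 0.128 (edgeR adjusted p = 0.0216), while V465F gave a log2 fold change of 0.04 ± 0.13 (edgeR adjusted p = 0.83). Of the others, Ndufaf2, a late factor, was higher in V560F with a log2 fold change of 0.37 ± 0.12 (edgeR adjusted p = 0.0126), which became 0.02 (edgeR adjusted p = 0.92) with the length trend removed. Its exons share 1955 bases with B230220B15Rik on the opposite strand, and stretches of 203 to 282 bases at least 95% identical to it occur in transcripts of other genes, so its counts are uncertain. Ndufaf7, a methyltransferase, and Ndufaf8 were not called, with log2 fold changes of -0.02 and 0.42 in V560F.

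The 4 factors of complex II serve its flavin and iron-sulfur subunits, Sdhaf1 and Sdhaf3 the iron-sulfur subunit and Sdhaf2 and Sdhaf4 the flavoprotein. Sdhaf1 stood at 7.07, 7.63 and 8.80 CPM in V465F, 7.37, 10.6 and 9.53 CPM in V560F, 6.33, 6.53 and 7.15 CPM in wild-type OPA1, 6.05, 5.22 and 7.25 CPM in knockdown and 8.17, 5.55 and 6.05 CPM in control libraries. V560F libraries lay above wild-type OPA1 libraries, with a log2 fold change of 0.46 ± 0.167 (edgeR adjusted p = 0.0264), which became 0.11 (edgeR adjusted p = 0.565) with the length trend removed. It shares 1733 bases of exon with E130208F15Rik on the opposite strand. Sdhaf3 stood at 9.75, 9.24 and 9.25 CPM in V465F, 6.38, 8.80 and 7.998 CPM in V560F, 8.31, 8.58 and 8.20 CPM in wild-type OPA1, 7.60, 7.92 and 7.53 CPM in knockdown and 8.63, 9.30 and 9.98 CPM in control libraries, and its V465F libraries lay above both V560F and wild-type OPA1 without a call. Sdhaf2 and Sdhaf4 were not called, with log2 fold changes of 0.14 and 0.19 in V560F. With the length trend removed Sdhaf3 was called lower in V560F, at -0.42 (edgeR adjusted p = 0.00852), and in knockdown, at -0.36 (0.0184). Sdhaf2 was then called higher in V465F, at 0.23 (edgeR adjusted p = 0.0477).

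For complex V, the ATP synthase, Atpaf2 binds the alpha and Atpaf1 the beta subunit of the F1 part. Atpaf2 stood at 32.9, 28.2 and 34.3 CPM in V465F, 34.4, 35.2 and 36.4 CPM in V560F, 27.3, 26.4 and 29.4 CPM in wild-type OPA1, 28.3, 28.2 and 26.7 CPM in knockdown and 27.1, 21.2 and 23.2 CPM in control libraries. V560F libraries were the highest, with a log2 fold change of 0.35 ± 0.0907 (edgeR adjusted p = 0.0028) against wild-type OPA1 and 0.53 with the length trend removed, and V465F gave a log2 fold change of 0.20 ± 0.0908 (edgeR adjusted p = 0.0894). With the length trend removed Atpaf2 was also called higher in V465F, at 0.35 (edgeR adjusted p = 0.00224), and in knockdown, at 0.33 (0.00327). Atpaf1 stood at 2.02, 2.10 and 3.33 CPM in V465F, 2.59, 2.42 and 2.89 CPM in V560F, 3.00, 3.90 and 2.94 CPM in wild-type OPA1, 2.19, 3.86 and 2.87 CPM in knockdown and 3.56, 2.86 and 3.36 CPM in control libraries, with a log2 fold change of -0.32 ± 0.238 (edgeR adjusted p = 0.274) in V560F. It has a processed pseudogene, Gm14117, identical over 814 bases, so its counts are uncertain. The partners of the 2 F1 subunits thus differed in their calls in V560F, which was not tested as a difference between genes. Lrpprc, which stabilises mitochondrial mRNAs, stood at 63.2, 56.5 and 57.5 CPM in V465F, 58.8, 49.5 and 52.6 CPM in V560F, 61.8, 53.5 and 52.1 CPM in wild-type OPA1, 57.4, 55.6 and 52.8 CPM in knockdown and 59.8, 57.7 and 53.8 CPM in control libraries. Its groups overlapped in all 5 comparisons, with log2 fold changes of 0.08 ± 0.0788 (edgeR adjusted p = 0.432) in V465F and -0.06 ± 0.0794 (edgeR adjusted p = 0.587) in V560F against wild-type OPA1. With the length trend removed Lrpprc was called higher in V465F, at 0.24 (edgeR adjusted p = 0.00593).

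Gene length moved with these values. In V560F against wild-type OPA1, when all genes were split by length into 3 bins of equal size, 42.8% of the shortest bin were higher and 5.94% lower, and of the 26 assembly factor genes in that bin 10 were higher and 1 lower. In the middle bin by length, 20.4% of all genes were higher and 25.4% lower, and of 17 assembly factor genes 5 were higher and 3 lower. By level, 25 assembly factor genes fell in the middle bin of 3, where 11 were higher and 2 lower, against 22.6% and 33% of all genes. Across the 44 genes, Spearman's rho of the V560F log2 fold change with length was -0.32, against -0.44 across all tested genes, which are not independent replicates. With the length trend removed, 11 of 44 were higher and 4 lower in V560F, against 29% and 16.7% of all tested genes, so the share of higher assembly factor genes then lay below that of all tested genes. Of these, 10 of the higher and 1 of the lower had been called under TMM scaling alone. The median log2 fold change of the 44 was 0.10, against 0.05 for all tested genes. In V465F 8 were higher and 2 lower, against 24.8% and 14% of all tested genes, and the median was 0.04, against 0.05 for all tested genes, so the gap between the medians under TMM scaling alone was not seen there. Under TMM scaling alone, the 18 tested genes with an exon overlap with another gene gave 7 higher and 2 lower in V560F. The 26 genes without overlap gave 8 higher and 2 lower, against 24.5% and 24.9% of all tested genes.

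**Figure D4:**
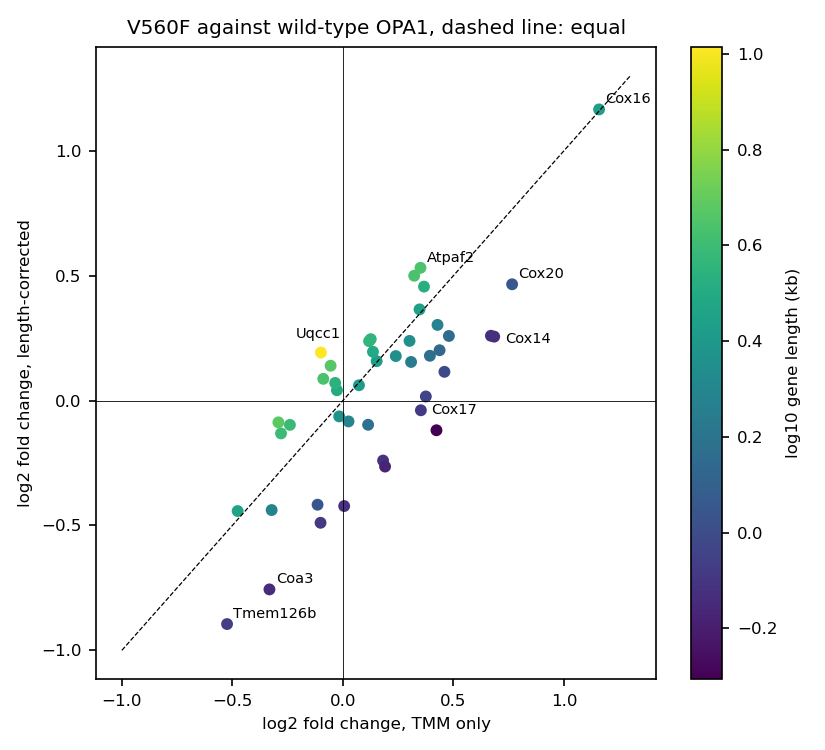
Log2 fold change of each tested assembly factor gene in V560F against wild-type OPA1 under TMM scaling alone (horizontal) and with each library's length trend removed (vertical), coloured by log10 of gene length in kb, with equality as a dashed line. Short genes such as Cox14 (0.68 and 0.26) and Cox17 (0.35 and -0.04) lie below the line, and Atpaf2 (0.35 and 0.53) and Uqcc1, the longest, above it.

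The other genes of respiratory assembly, 35 of which were tested, gave 12 higher and 0 lower in V465F against wild-type OPA1 (34.3% and 0%, against 18.1% and 20% of all tested genes). In V560F against wild-type OPA1 they gave 13 higher and 1 lower (37.1% and 2.86%, against 24.5% and 24.9%), and in knockdown against control 5 higher and 2 lower (14.3% and 5.71%, against 19.9% and 16%). All values of this list are under TMM scaling alone. The list was not read with the length trend removed or on the FPKM scale. In each mutant 24 of the 35 log2 fold changes were positive and 11 negative. The genes named here from the list are examples and were not picked by a set rule. Oxa1l, the insertase of the inner membrane, had log2 fold changes of 0.32 in V465F and 0.51 in V560F (edgeR adjusted p = 0.000762 and 3.08e-06), and Hccs, which attaches heme to c-type cytochromes, had log2 fold changes of 0.29 and 0.51 (0.0209 and 0.000153). Higd2a, a factor of complex IV and supercomplexes, had log2 fold changes of 0.42 in V465F and 0.78 in V560F (0.00396 and 5.29e-06). The lower gene in V560F, named after its value was seen, was Iba57, a factor of iron-sulfur cluster assembly, with a log2 fold change of -0.98 (edgeR adjusted p = 0.0118), and in V465F its value of -0.65 was not called (0.0872).

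The subunits that these factors assemble were read in the same fit. Of 86 nuclear-encoded subunits tested, among them Cox7a2l, which also stands in the list of other assembly genes, 70 were higher and 0 lower in V465F, with a median log2 fold change of 0.36, against 7 and 1 of 44 assembly factor genes. In V560F 79 subunits were higher and 0 lower, with a median of 0.55, against 15 and 4 of 44. Of all tested genes, 18.1% were higher and 20% lower in V465F, and 24.5% and 24.9% in V560F. With the length trend removed 37 subunits were higher and 0 lower in V465F, against 24.8% and 14% of all tested genes. In V560F 40 were then higher and 1 lower, against 29% and 16.7%. The subunit medians were then 0.12 in V465F and 0.14 in V560F, against 0.04 and 0.10 for the assembly factors. For all tested genes the median was 0.05 in both. The 2 lists were described by counts and medians, and their difference was not tested.

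**Figure D5:**
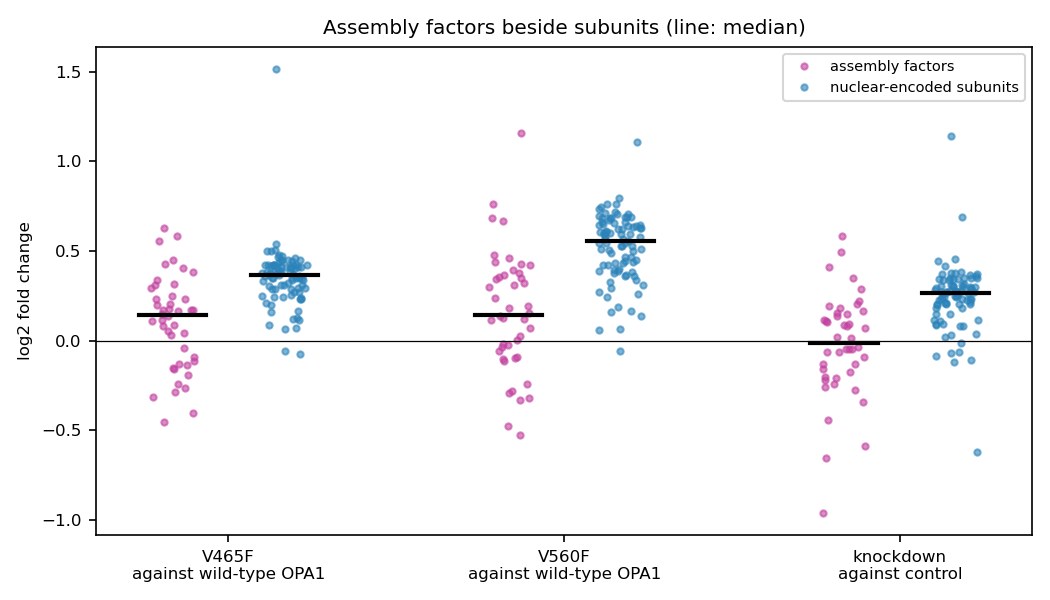
Log2 fold changes under TMM scaling of the 44 assembly factor genes and of 86 nuclear-encoded subunits of the respiratory complexes, 1 point per gene, with the median of each list as a line, for V465F and V560F against wild-type OPA1 and for knockdown against control. The subunit medians were 0.36, 0.55 and 0.27 and those of the assembly factors 0.14, 0.14 and -0.01; on the FPKM scale the assembly factor medians were -0.02, -0.10 and -0.13.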

How the data were processed

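RNA of 15 libraries, 3 in each of 5 groups taken from the sample labels, was extracted with TRIzol and prepared with a VAHTS kit, per the labels' protocols. The submitters' processing notes name the build GRCm39 and the tools HISAT2, HTSeq, fastp and R 3.2.0; the annotation, strand setting and filters are not given in the sources used here. The table deposited by the authors holds raw counts and FPKM for 22507 genes; the deposited FPKM equals counts divided by gene length and the table's total, within a relative gap of 1.2e-06. Library totals were 20070123 to 27809960 counts, and no row was without a gene.

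The counts of all genes were tested with edgeR 4.0.16 (TMM, filterByExpr, quasi-likelihood, 1 mean per group, 10 residual degrees of freedom) in R 4.3.3, with Benjamini-Hochberg adjustment over the 13074 tested genes and calls at an adjusted p under 0.05. The ± after a log2 fold change is its standard error. The biological coefficient of variation was 7.99%. An exact permutation test of 3 against 3 libraries cannot go below p = 0.1. Alternatives were limma 3.58.1 on log2(FPKM + 1) and log2(FPKM + 0.1), DESeq2 1.42.0, its size factors, a replicate block, only the 6 libraries compared, no filter on low counts, a minimum of 5 FPKM in 3 libraries, splines with 5 degrees of freedom on length or on length and G and C content, and libraries left out. Length came from counts and FPKM. G and C content (for 12510 of 13074 genes, 95.7%), exon overlaps and copies (blastn 2.17.0, at least 95% identity over 200 bases) came from GENCODE M21 on GRCm38, which differs from the files' build, so no coordinates were taken from it. Promoter windows are RefSeq's on GRCm38.p6.

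Values in every library are given for the called genes with the 3 largest rises and 3 largest falls without overlap in each comparison, the 2 genes of each complex with the lowest adjusted p, and a fixed list of 16 genes. The genes, lists and comparisons were chosen with earlier results of these data known.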

Additional observations from a re-analysis of the deposited data

How the results depend on the processing

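Of the 34 calls of assembly factor genes, 10 held under every alternative run: Cox20 and Uqcc2 higher and Coa3 and Coa4 lower in knockdown, Cox14, Cox20, Surf1 and Uqcc2 higher in V560F, and Cox20 and Uqcc2 higher in V465F. On the FPKM scale, with either pseudocount, 17 calls were lost, and with the length correction 10. The shares in brackets are those of all tested genes under the same setting. On the FPKM scale 2 genes were higher (7.79 to 7.94%) and 11 lower (24.3 to 27.4%) in knockdown. In V560F 5 were higher (9.59%) and 12 lower (44.4 to 45.5%), and in V465F 2 were higher (7.41 to 7.43%) and 8 lower (32.9%). With a pseudocount of 0.1 the median log2 fold change of all tested genes was -0.13, -0.26 and -0.17 in the same order. With the FPKM filter 2 were higher (17.4%) and 7 lower (18.1%) in knockdown and 2 lower (26.8%) in V465F. With only the 6 libraries compared, 9 were lower in knockdown (23.2%), 1 in V560F (21%) and 2 in V465F (22.7%). The length correction gave 7 higher in knockdown (29.8%, or 30.7% with the replicate block added) and 2 lower in V465F (14%, or 14.4%). The length and GC correction gave 5 lower in knockdown (13.5%), 6 lower in V560F (17.2%) and 2 lower in V465F (14.5%). Without V560F replicate 2 and wild-type OPA1 replicate 3 together, 6 were lower in knockdown (20.1%), 9 higher (22.4%) and 2 lower (21.9%) in V560F, and 11 higher (21.6%) and 2 lower (22.9%) in V465F. Leaving out 1 library at a time gave 10 to 16 higher (20.3 to 24.3%) and 2 to 4 lower (20.3 to 24.2%) in V560F. There were 2 lower without V560F replicate 2 or wild-type OPA1 replicate 2 or 3. In V465F 0 to 2 were lower (14.6 to 19.3%), with 0 without wild-type OPA1 replicate 2 or V465F replicate 3. In V560F against wild-type OPA1 the sign of the log2 fold change turned in 12 of 44 genes with the length correction, 13 with length and GC and 11 on the FPKM scale. Among those called with or without the alternative, it turned for Cox17 (-0.039 with the length correction, -0.038 with the replicate block added, -0.13 with length and GC), Lrpprc (0.14 with the replicate block and the length correction), and, with length and GC, Coa6 (-0.47), Cox19 (-0.27), Ndufaf2 (-0.011) and Uqcc1 (0.22). FPKM divides by unscaled totals and so leaves out the TMM factors. These were 1.137 to 1.1726 in control, 1.0289 to 1.0601 in knockdown and 1.0067 to 1.0692 in wild-type OPA1 libraries. In V465F libraries they were 0.90683 to 0.93012, and in V560F libraries 0.81826 to 0.90021. A lower factor lowers a library's FPKM relative to its TMM-scaled CPM. How far this accounts for the FPKM shifts was not tested, nor was the cause of the other shifts.

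Same-numbered libraries of different groups correlated at -0.179 to 0.0878 in their deviations from the group means (0 of 30 pairs over 0.1, the level set for taking the numbers as pairs), so the numbers were not used as pairs in the main test. In 38 of 60 cases a library correlated best with its own number, where unrelated numbers would give 20. The cases are not independent of each other. The highest correlation, 0.267, was between V560F replicate 2 and wild-type OPA1 replicate 3. Whether same-numbered libraries share something was not tested. With a replicate block 5 genes were higher and 3 lower in knockdown, against 19.7% and 16.1% of all tested genes. In V560F 16 were higher and 4 lower, against 24.4% and 25%, and in V465F 7 and 1, against 18.1% and 20.1%. The other comparisons gave 0, against 0% of all tested genes in wild-type OPA1 against knockdown. In V465F against V560F 0.00765% of all tested genes were higher and 0.0153% lower.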
